A study of Homo sapiens with 66 samples.

Results

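The response to NCP26 after 6 h was compared between 2 human multiple myeloma cell lines, as the difference of 2 treatment effects: NCP26 against DMSO in carfilzomib (CFZ)-resistant L363 cells (L363-CFZr) minus NCP26 against DMSO in AMO1 cells. The comparison took 12 of the 66 RNAseq libraries of the series, 3 of each line and treatment, chosen by their labels. Cells of both lines had received NCP26 at 1 µM or the solvent DMSO alone, and the AMO1 cells are labelled WT. How the resistant L363 cells were derived is not given in the sources used here and untreated parental L363 was not analysed here, so a property of L363 and one of CFZ resistance cannot be told apart. The study states that conditions were run in triplicate and, for its experiments in general, that triplicates were biological. The labels do not say whether the RNAseq replicates came from separate cultures, and the p-values measure the spread between these libraries.

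NCP26 inhibits the prolyl-tRNA synthetase activity of the bifunctional enzyme encoded by EPRS1 by occupying its ATP pocket. A synthetase that is blocked leaves its tRNA uncharged. Uncharged tRNA activates the kinase GCN2, which phosphorylates eIF2α. General translation initiation then falls while the mRNA of the transcription factor ATF4 is translated more, and ATF4 raises genes for amino acid synthesis, amino acid uptake and tRNA charging. This programme is the integrated stress response (ISR), and its branch for missing amino acids is the amino acid response. Myeloma cells are malignant plasma cells, whose high output of immunoglobulin makes a heavy demand on protein synthesis.

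The 6 AMO1 libraries held 2500293 to 3183765 counts and the 6 L363-CFZr libraries 3030772 to 5414856. All 12 plasma cell markers had a mean of at least 1 CPM, here a gene's count scaled to its library's total, in each of the 4 groups. Their summed level ran from 10162 to 10293 CPM in AMO1 with DMSO and from 5781 to 5906 CPM with NCP26, and from 8070 to 8667 CPM and from 6211 to 6559 CPM in L363-CFZr. Of 22 markers of other cell types 9 to 14 were at 0 in a group, and their sum was at most 16.04 CPM. Mitochondrial transcripts took 3.98% to 5.10% of the counts in AMO1 and 6.54% to 7.52% in L363-CFZr. Replicate 1 of AMO1 with NCP26 had counts for 15581 genes, above the 13248 to 13636 of the other AMO1 libraries, and replicate 2 of L363-CFZr with NCP26 differed from its replicates by 11.4 and 18.6 times Poisson noise. Sample numbers in the table's column names recur across the series, so sets in which no number recurs were inferred. What a set stands for is not stated. The 6 AMO1 libraries fall in one inferred set and the 6 L363-CFZr libraries in another. Line and set therefore cannot be told apart, while DMSO and NCP26 of a line share a set.

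The NCP26 effect differed between the lines for 299 of 11044 genes tested (2.71%, edgeR's quasi-likelihood test, adjusted p under 0.05). It was higher in L363-CFZr for 216 genes (1.96%) and lower for 83 (0.752%). A higher difference means that the gene rose by a larger fold, or fell by a smaller one, in L363-CFZr than in AMO1. The difference of the changes in CPM had the opposite sign for 5 of the 299 genes (1.67%). In absolute size 122 of the 299 differences were at least 1 on the log2 scale, 93 of them higher and 29 lower. At an unadjusted p under 0.05 there were 1800 genes. Of the 299 genes 209 also differed between the lines under DMSO, where 52.4% of all genes did. Without replicate 1 of AMO1 with NCP26 and replicate 2 of L363-CFZr with NCP26, an alternative added after the data were seen, 513 genes were called, 340 higher and 173 lower, and 289 of the 299 genes were among them.

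Within the lines NCP26 changed 3825 genes in AMO1 (34.6%), with 1848 raised (16.7%) and 1977 lowered (17.9%). In L363-CFZr it changed 2534 genes (22.9%), with 1200 raised (10.9%) and 1334 lowered (12.1%). Of the 1601 genes called in both lines 1582 moved in the same direction. The terms of the difference share their libraries with it, so the following split only describes the calls. Among the 216 higher differences, 92 genes fell in AMO1 with no call in L363-CFZr, 40 fell in both lines, 39 rose in L363-CFZr with no call in AMO1, 32 rose in both and 13 fell in AMO1 and rose in L363-CFZr. Among the 83 lower differences, 54 genes rose in AMO1 with no call in L363-CFZr, 12 rose in both lines, 11 fell in L363-CFZr with no call in AMO1 and 6 rose in AMO1 and fell in L363-CFZr. Over all tested genes the median log2 effect was -0.01 in AMO1, and the median difference was 0.01.

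**Figure D1:**
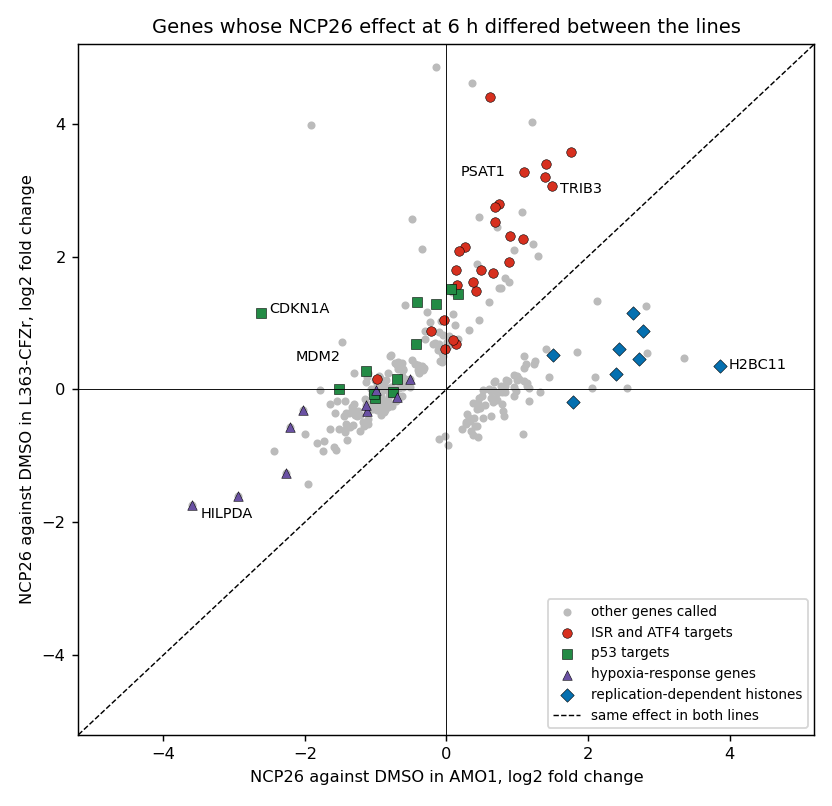
Log2 fold change of NCP26 against DMSO at 6 h in AMO1 (x axis) and L363-CFZr (y axis) for genes whose effect differed between the lines, with 297 of 299 genes inside the axes. ISR genes (red), p53 targets (green) and hypoxia-response genes (purple) sit above the dashed line of equal effect, and replication-dependent histone genes (blue) sit below it.

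The ISR genes gave the largest group with a higher effect in L363-CFZr. Of 45 tested ISR and ATF4 target genes, 27 were higher (60.0%) and 0 lower in the edgeR test, and the median difference was 1.05 on the log2 scale. Over all genes 1.96% were higher and 0.752% lower, the shares to set beside the counts of each list below. For counts within a line, 16.7% of all genes rose and 17.9% fell in AMO1, and 10.9% rose and 12.1% fell in L363-CFZr. In AMO1 30 of the 45 rose and 3 fell, with a median effect of 0.69, and in L363-CFZr 42 rose and 0 fell, with a median of 1.75. Under DMSO 33 of the 45 were lower in L363-CFZr than in AMO1 and 8 higher, where 26.8% and 25.5% of all genes were. The count of higher members ran from 23 to 37 over the alternatives, and was 30 without the pair of libraries that stood apart, with 1 then lower.

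ATF4, the transcription factor of the programme, was raised in L363-CFZr and had no call in AMO1. In AMO1 it stood at 507, 509.7 and 474 CPM with DMSO and at 459.7, 387 and 432 CPM with NCP26. In L363-CFZr it stood at 447, 449.8 and 474 CPM with DMSO and at 794, 1002 and 726 CPM with NCP26, with the highest value in replicate 2. The groups of a line did not overlap, lower with NCP26 in AMO1 and higher in L363-CFZr, and the log2 effects of -0.22 ± 0.12 (SE) in AMO1 and 0.88 ± 0.12 in L363-CFZr gave a difference of 1.10 ± 0.16 (edgeR adjusted p = 9.60e-04). In bulk RNA a higher level per cell and a higher share of cells with the transcript cannot be told apart.

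TRIB3, a pseudokinase gene induced by ATF4 (chromosome 20, 362835 to 397559, plus strand, GRCh38), rose in both lines and to a higher level in L363-CFZr. It read 114, 100.5 and 115 CPM with DMSO and 319, 302 and 304 CPM with NCP26 in AMO1. In L363-CFZr it read 72.1, 69.7 and 74.3 CPM with DMSO and 576, 688 and 547 CPM with NCP26. It started lower in L363-CFZr and ended higher, with no overlap between any pair of the 4 groups. Its rise was 2.801-fold in AMO1 and 8.36-fold in L363-CFZr, a log2 difference of 1.58 ± 0.15 (edgeR adjusted p = 8.78e-06). INHBE, which encodes an inhibin beta subunit, went from 35.03, 31.9 and 35.4 to 101, 121 and 124 CPM in AMO1 and from 11.2, 18.02 and 16.7 to 195, 184 and 174 CPM in L363-CFZr (difference 1.81 ± 0.20, edgeR adjusted p = 3.95e-05). It too began below AMO1 and ended above it.

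CHAC1, whose enzyme degrades glutathione, and SESN2, a leucine-binding inhibitor of mTORC1, had larger differences. CHAC1 stood at 14.2, 11.6 and 10.97 CPM with DMSO and 18.9, 20.1 and 20.5 CPM with NCP26 in AMO1, and at 8.85, 4.08 and 7.495 CPM with DMSO and 41.9, 52.9 and 45.04 CPM with NCP26 in L363-CFZr (difference 2.06 ± 0.29, edgeR adjusted p = 5.70e-04). For SESN2 (chromosome 1, 28259518 to 28282491, plus strand) the values were 125, 121 and 105 CPM with DMSO and 181, 203 and 202 CPM with NCP26 in AMO1, and 36.7, 29.2 and 36.4 CPM with DMSO and 245, 221 and 247 CPM with NCP26 in L363-CFZr. Both genes rose in both lines without overlap between treatments. The SESN2 difference was 2.05 ± 0.15 (edgeR adjusted p = 8.36e-07), and it rose 1.67-fold in AMO1 and 6.93-fold in L363-CFZr.

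The upstream 250 bases of ISR genes were searched for the letters TGATGNAA on either strand, the core of the composite element bound by C/EBP and ATF4 dimers, and no other motif was searched. RefSeq promoters (GRCh38.p14) were matched by symbol for 35 of the 45 tested ISR genes, and 5 (14.3%) held the core, against 1.28% of the 8951 tested genes with a promoter and 3.19% of all 27305 promoters. Of all genes called higher 163 had a promoter and 6 held the core (3.68%). Of the 27 ISR genes called higher 19 had a promoter, and 2 of these (10.5%), CHAC1 and ASNS, held the core. They are shown because they are the called members with it, 5′ to 3′ up to the annotated start, with the core in capitals. The window of CHAC1 is chr15:40953221-40953470, plus strand, and that of ASNS, which encodes asparagine synthetase, is chr7:97872409-97872658, minus strand.
CHAC1: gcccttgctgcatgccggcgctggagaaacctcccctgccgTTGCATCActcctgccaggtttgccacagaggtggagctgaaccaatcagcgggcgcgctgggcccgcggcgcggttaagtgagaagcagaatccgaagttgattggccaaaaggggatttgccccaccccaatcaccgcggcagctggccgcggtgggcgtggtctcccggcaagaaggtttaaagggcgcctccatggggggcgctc
ASNS: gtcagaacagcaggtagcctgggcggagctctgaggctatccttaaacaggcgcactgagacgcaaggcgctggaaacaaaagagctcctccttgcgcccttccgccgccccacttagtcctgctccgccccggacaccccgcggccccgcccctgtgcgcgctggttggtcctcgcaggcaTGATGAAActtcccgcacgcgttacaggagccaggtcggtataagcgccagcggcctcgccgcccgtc
In CHAC1 the core reads on the opposite strand and ends 201 bases before the start, and in ASNS it reads on the gene's strand and ends 60 bases before it. A match of letters shows no binding.

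Enzymes of serine synthesis and of mitochondrial one-carbon metabolism, which supply glycine and carbon units for nucleotides, were called higher for 7 of 11 tested genes (63.6%) and lower for 0, with a median difference of 1.08. In AMO1 4 of the 11 rose and 4 fell, and in L363-CFZr 7 rose and 1 fell. Under DMSO 9 of the 11 were lower in L363-CFZr than in AMO1 and 1 higher, where 26.8% and 25.5% of all genes were. Of the 7 called members, 6 are also in the ISR list. PSAT1 (chromosome 9, 78297125 to 78330093, plus strand), the aminotransferase of serine synthesis, stood at 105, 108 and 118 CPM with DMSO and 227, 229 and 252 CPM with NCP26 in AMO1. In L363-CFZr it stood at 54.1, 49.6 and 52.5 CPM with DMSO and 470.3, 521 and 518 CPM with NCP26. It rose 2.14-fold in AMO1 and 9.65-fold in L363-CFZr, and its difference of 2.17 ± 0.13 had the smallest edgeR adjusted p of the ISR list (1.03e-07).

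MTHFD2, a mitochondrial folate enzyme, was at 412, 436 and 442 CPM with DMSO and 449, 503 and 472 CPM with NCP26 in AMO1. It was at 177, 170.0 and 167 CPM with DMSO and 586, 623 and 586 CPM with NCP26 in L363-CFZr. The AMO1 groups did not overlap, yet the effect of 0.14 ± 0.09 missed the threshold (edgeR adjusted p = 0.214), while L363-CFZr gave 1.80 ± 0.09 and the difference was 1.66 ± 0.12 (edgeR adjusted p = 8.36e-07). PHGDH, the first enzyme of serine synthesis, differed by 1.30 ± 0.16 and SHMT2, the mitochondrial serine hydroxymethyltransferase, by 1.07 ± 0.14. Both were raised by NCP26 in L363-CFZr, by 1.79 ± 0.11 and 1.05 ± 0.10. In AMO1 PHGDH rose by 0.49 ± 0.12 and SHMT2 gave -0.03 ± 0.10 with no call.

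Other enzymes that make amino acids or release them followed. ASNS was at 134, 134 and 134 CPM with DMSO and 257, 244 and 250 CPM with NCP26 in AMO1, and at 72.8, 71.4 and 85.4 CPM with DMSO and 359, 419.7 and 359.5 CPM with NCP26 in L363-CFZr. It differed by 1.40 ± 0.14 (edgeR adjusted p = 2.20e-05). GPT2, a mitochondrial alanine aminotransferase, went from 77.3, 70.8 and 75.05 to 81.6, 92.95 and 92.1 CPM in AMO1 and from 34.4, 32.3 and 29.3 to 150.3, 139 and 135 CPM in L363-CFZr, a difference of 1.89 ± 0.14. CTH, which makes cysteine, differed by 1.99 ± 0.28. All 3 genes were raised by NCP26 in L363-CFZr. PYCR1, the proline synthesis enzyme, was the 1 of 8 tested genes of proline synthesis and prolyl-tRNA charging that was called, with -0.02 ± 0.10 in AMO1, 0.61 ± 0.10 in L363-CFZr and a difference of 0.63 ± 0.14 (edgeR adjusted p = 0.0223). That call was lost when any of 6 libraries was left out, among them replicates 1 and 2 of AMO1 with DMSO.

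EPRS1 itself, which encodes the target of NCP26, rose in both lines, from 307, 325 and 334 to 359, 420.0 and 398 CPM in AMO1 and from 467, 481 and 454 to 694, 631 and 793 CPM in L363-CFZr. Its difference of 0.31 ± 0.14 did not pass the test (edgeR adjusted p = 0.296). Of 21 tested cytosolic synthetases other than the prolyl one, 6 were higher (28.6%) and 0 lower, with a median of 0.38. NARS1 and WARS1, 2 of the 6, are also in the ISR list. The higher count was 3 without replicate 1 of AMO1 with DMSO or replicate 1 or 3 of L363-CFZr with DMSO. The tryptophanyl enzyme WARS1 had the largest, 1.24 ± 0.13. It was at 841, 799 and 782 CPM with DMSO and 997, 1025 and 1124 CPM with NCP26 in AMO1, and at 83.3, 76.8 and 82.2 CPM with DMSO and 240.5, 245 and 259 CPM with NCP26 in L363-CFZr. WARS1 thus rose by a larger fold in L363-CFZr from a lower start, and stayed below AMO1 with both treatments. The glycyl enzyme GARS1 began at like levels in both lines, 393, 387 and 379.5 CPM in AMO1 and 399, 382 and 407 CPM in L363-CFZr, and reached 642, 714 and 702 CPM in AMO1 and 1277, 1273 and 1249 CPM in L363-CFZr with NCP26 (difference 0.85 ± 0.12, edgeR adjusted p = 7.53e-04).

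Amino acid transporters were higher for 7 of 16 tested genes (43.8%) and lower for 0, with a median difference of 0.62, and 5 of the 7 are also in the ISR list. SLC7A5, the light chain of the leucine carrier LAT1, was at 412, 378 and 360.0 CPM with DMSO and 354, 437 and 479 CPM with NCP26 in AMO1, where the groups overlapped. In L363-CFZr it was at 157, 167 and 151 CPM with DMSO and 482, 418 and 507 CPM with NCP26, and the difference was 1.43 ± 0.16 (edgeR adjusted p = 8.26e-05). The glycine transporter SLC6A9 went from 20.5, 18.2 and 12.7 to 39.8, 42.9 and 52.4 CPM in AMO1 and from 11.8, 11.2 and 7.92 to 89.6, 82.6 and 105 CPM in L363-CFZr, a difference of 1.80 ± 0.27. It rose in both lines, as did the glutamine transporter SLC1A5, with 1.09 ± 0.15. SLC7A11, the cystine transporter, rose in both lines by 2.30 ± 0.22 and 3.08 ± 0.18, and its difference of 0.78 ± 0.30 missed the threshold (edgeR adjusted p = 0.196).

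Some ISR genes, among them the transcription factor genes DDIT3 and ATF3, stood outside this group. DDIT3, which encodes CHOP, was at 80.3, 78.5 and 74.3 CPM with DMSO and 309, 265 and 271 CPM with NCP26 in AMO1. In L363-CFZr it was at 31.1, 32.6 and 30.4 CPM with DMSO and 127, 141 and 108 CPM with NCP26. It rose 3.62-fold and 3.99-fold, and the difference was 0.14 ± 0.16 (edgeR adjusted p = 0.722). ATF3, a stress-induced repressor, rose from 16.5, 15.1 and 12.4 to 96.6, 112 and 124 CPM in AMO1 and from 5.58, 6.46 and 5.57 to 40.05, 35.7 and 40.6 CPM in L363-CFZr, a difference of -0.19 ± 0.24 (edgeR adjusted p = 0.769). PPP1R15A, the eIF2α phosphatase subunit GADD34, gave -0.45 ± 0.17 (edgeR adjusted p = 0.19). A p that misses the threshold does not show that the effects were equal. Of 17 tested genes for eIF2 kinases and their regulators, 0 were higher and 1 lower, EIF2AK3 (-0.72 ± 0.14), which encodes the endoplasmic reticulum kinase PERK.

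**Figure D2:**
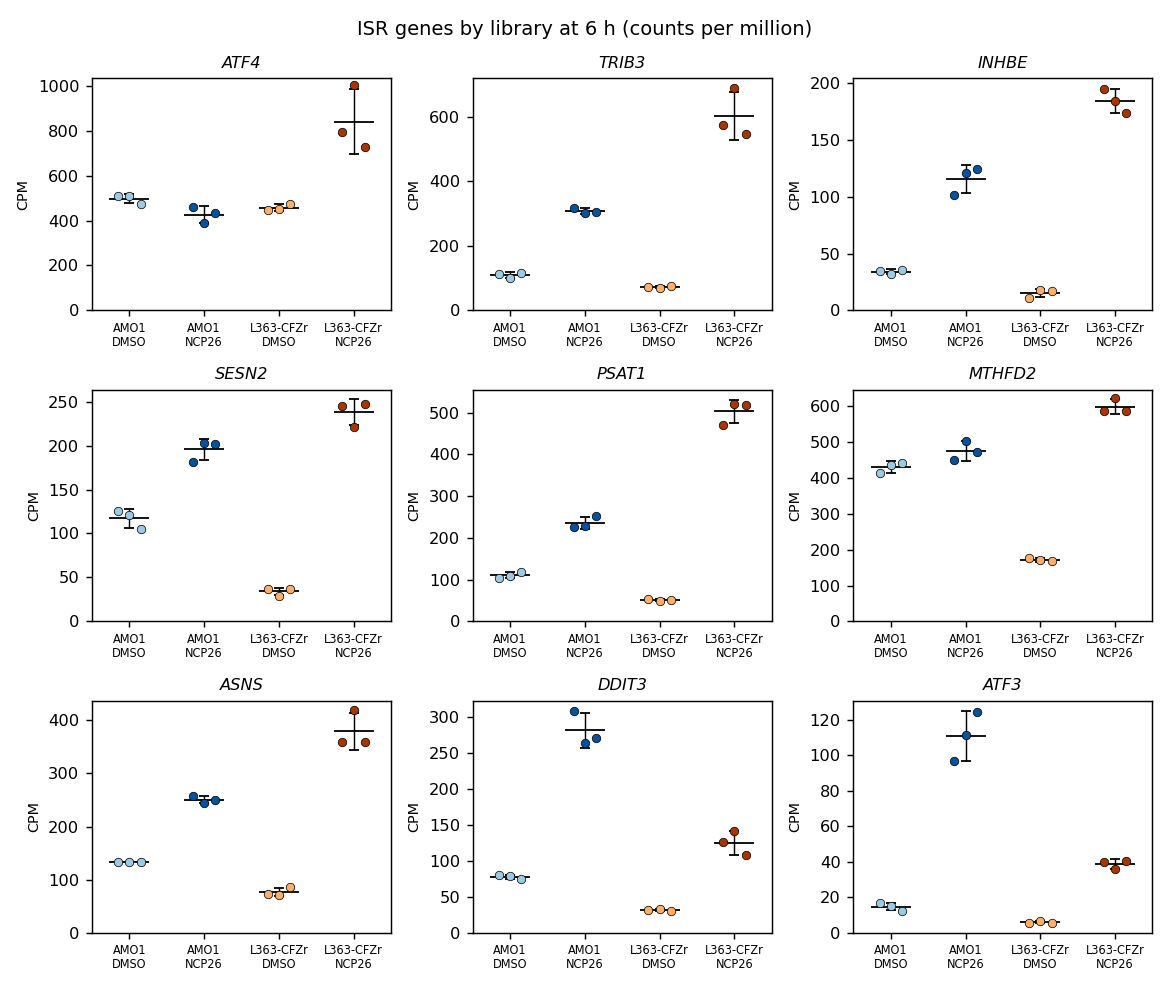
Level of 9 ISR genes in CPM (y axis, from 0) in each of the 12 libraries at 6 h, with the mean and SD of 3 libraries as bars. ATF4 rose with NCP26 in L363-CFZr and had no call in AMO1, TRIB3, INHBE, SESN2, PSAT1 and ASNS started lower in L363-CFZr and ended higher than in AMO1, and DDIT3 and ATF3 rose in both lines and ended lower in L363-CFZr.

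Of the nutrient sensing genes around mTORC1, 4 of 20 tested were higher and 2 lower, with a median of -0.09. The higher ones were SESN2, EIF4EBP1, DDIT4 and SESN1. EIF4EBP1, a translation repressor, was at 76.01, 79.2 and 71.2 CPM with DMSO and 103, 76.3 and 77.2 CPM with NCP26 in AMO1, and at 48.5, 53.7 and 56.5 CPM with DMSO and 198, 308 and 172 CPM with NCP26 in L363-CFZr (difference 1.91 ± 0.26), with replicate 2 the highest there as for ATF4. DDIT4, an mTORC1 inhibitor also induced by low oxygen and p53, went from 856, 848 and 808 to 389, 463 and 424 CPM in AMO1. In L363-CFZr it went from 747, 722 and 745 to 855, 875 and 725 CPM, where the groups overlapped, so that the difference of 1.13 ± 0.14 (edgeR adjusted p = 2.20e-04) came with a fall in AMO1. FLCN, the folliculin gene, was lower (-1.01 ± 0.15), as was RRAGC, a Rag GTPase gene (-0.75 ± 0.16), and both rose in AMO1 and had no call in L363-CFZr.

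Targets of p53 formed the second group, with 12 of 21 tested genes higher (57.1%) and 0 lower and a median difference of 0.88. In AMO1 0 of the 21 rose and 13 fell, with a median of -0.70, and in L363-CFZr 7 rose and 3 fell, with a median of 0.08. Of all genes 16.7% rose and 17.9% fell in AMO1, and 10.9% rose and 12.1% fell in L363-CFZr. Under DMSO 18 of the 21 were lower in L363-CFZr than in AMO1 and 0 higher, where 26.8% and 25.5% of all genes were. TNFRSF10B is shared with the ISR list. The count was 14 without both libraries that stood apart. It fell to 5 without replicate 1 of L363-CFZr with DMSO, 6 without its replicate 3, and 7 without replicate 3 of AMO1 with DMSO or replicate 1 of L363-CFZr with NCP26.

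CDKN1A (chromosome 6, 36676460 to 36687337, plus strand), which encodes the CDK inhibitor p21, had the largest absolute difference of the genes named here that were above 1 CPM in each library. It stood at 441, 434 and 390.1 CPM with DMSO and 68.2, 69.2 and 68.7 CPM with NCP26 in AMO1, and at 4.26, 7.82 and 6.21 CPM with DMSO and 12.7, 13.4 and 14.5 CPM with NCP26 in L363-CFZr. It therefore fell in AMO1, by 2.62 on the log2 scale, and rose by 1.15 ± 0.17 in L363-CFZr, and its level with NCP26 was still higher in AMO1. The difference was 3.77 ± 0.20 (edgeR adjusted p = 2.18e-08). MDM2, the ligase that degrades p53, fell from 556, 516 and 589 to 264, 253 and 241 CPM in AMO1. In L363-CFZr it was at 44.9, 56.4 and 49.9 CPM with DMSO and 59.3, 55.8 and 68.6 CPM with NCP26, which overlapped, and the difference was 1.42 ± 0.15 (edgeR adjusted p = 3.95e-05).

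Several death genes of the p53 list rose in L363-CFZr, but BAX did not. BBC3, which encodes the BH3-only protein PUMA, was at 68.7, 61.6 and 50.3 CPM with DMSO and 39.4, 43.2 and 52.7 CPM with NCP26 in AMO1, with overlap, and at 10.8, 12.6 and 7.71 CPM with DMSO and 23.5, 25.8 and 26.1 CPM with NCP26 in L363-CFZr. Its difference was 1.73 ± 0.24 (edgeR adjusted p = 6.08e-04). TNFRSF10B, the TRAIL receptor DR5, overlapped between treatments in AMO1, 164, 156 and 157 CPM with DMSO and 156, 173 and 169 CPM with NCP26. It went from 48.9, 49.3 and 44.1 to 136, 130.3 and 139 CPM in L363-CFZr, a difference of 1.45 ± 0.13 (edgeR adjusted p = 4.61e-06). The death receptor FAS rose in L363-CFZr by 1.28 ± 0.26, had -0.15 ± 0.17 in AMO1 with no call, and differed by 1.43 ± 0.31. BAX had no call in L363-CFZr (-0.13, edgeR adjusted p = 0.59), and its difference of 0.88 ± 0.21 came with a called fall in AMO1, -1.01. FDXR, a mitochondrial reductase, did not rise in L363-CFZr (0.01, edgeR adjusted p = 0.983). Its difference of 1.53 ± 0.28 came with a called fall in AMO1, -1.52 ± 0.19.

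Over the BCL2 family and death receptors 7 of 20 tested genes were higher and 1 was lower (40.0% in all), with a median of 0.16, and 4 of the 8 are p53 targets. The higher count was 3 without replicate 1 or replicate 3 of L363-CFZr with DMSO and 4 without replicate 1 of L363-CFZr with NCP26. Under DMSO 12 of the 20 were lower in L363-CFZr than in AMO1 and 5 higher, where 26.8% and 25.5% of all genes were. BCL2L11, which encodes the killer BIM, fell from 219, 195 and 216 to 119.9, 124 and 119.5 CPM in AMO1 and was at 152, 155 and 145 CPM with DMSO and 154, 146 and 164 CPM with NCP26 in L363-CFZr (difference 0.83 ± 0.12). Among the survival genes BCL2 was higher, with -0.19 ± 0.14 in AMO1, 0.68 ± 0.13 in L363-CFZr and a difference of 0.87 ± 0.19 (edgeR adjusted p = 0.0179), and BCL2L1, which encodes BCL-XL, was lower. BCL2L1 rose from 43.3, 40.6 and 44.6 to 52.8, 54.04 and 62.8 CPM in AMO1 and fell from 69.2, 72.1 and 79.2 to 51.98, 49.6 and 48.9 CPM in L363-CFZr, with no overlap in either line and a difference of -0.96 ± 0.15 (edgeR adjusted p = 0.00163). MCL1, the survival gene on which plasma cells depend, gave 0.35 ± 0.14 with no call (edgeR adjusted p = 0.231).

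Hypoxia-response genes, which the transcription factor HIF1 drives when oxygen is low, were higher for 10 of 17 tested genes (58.8%) and lower for 0, with a median difference of 0.76. NCP26 lowered 15 of the 17 in AMO1 and raised 1, with a median of -1.11. In L363-CFZr it lowered 9 and raised 1, with a median of -0.31. The count was 10 also without both libraries that stood apart. HILPDA (chromosome 7, 128455849 to 128458418, plus strand), a lipid droplet gene, fell in AMO1 from 90.9, 87.2 and 84.6 to 4.73, 9.57 and 6.84 CPM. In L363-CFZr it fell from 51.5, 50.99 and 44.97 to 15.4, 17.1 and 11.7 CPM. No groups overlapped, and the effects of -3.60 ± 0.19 and -1.74 ± 0.16 gave a difference of 1.86 ± 0.25 (edgeR adjusted p = 4.62e-04).

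NDRG1, a stress gene of the same response, fell from 140.1, 133 and 148 to 35.5, 34.3 and 33.9 CPM in AMO1. Its L363-CFZr levels were 49.2, 55.8 and 53.1 CPM with DMSO and 40.9, 45.4 and 41.1 CPM with NCP26, and the difference was 1.71 ± 0.14 (edgeR adjusted p = 2.75e-06). ANKRD37 differed by 1.65 ± 0.21 and PFKFB4, a regulator of glycolysis, by 1.34 ± 0.21. PDK1, the kinase that holds back pyruvate dehydrogenase, fell in AMO1 by 0.99 and had -0.01 ± 0.11 in L363-CFZr. The hypoxia genes ANGPTL4, ADM, BNIP3 and VEGFA had no call, with differences of -0.19, -0.12, -0.11 and 0.12.

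Glucose uptake and glycolysis genes moved with them. NCP26 lowered 19 of 21 tested genes in AMO1 and 16 in L363-CFZr, where it lowered 17.9% and 12.1% of all genes, and raised 0 in either. Under DMSO 13 of the 21 were lower in L363-CFZr than in AMO1 and 2 higher, where 26.8% and 25.5% of all genes were. Of the differences 7 were higher (33.3%) and 0 lower, with a median of 0.38. The higher count was 2 with a replicate block within each line, 4 with that block and a GC offset, and 5 to 7 when 1 library was left out. SLC2A1, the glucose transporter GLUT1, fell from 69.1, 66.5 and 66.5 to 13.8, 13.3 and 10.4 CPM in AMO1 and from 36.1, 42.8 and 39.6 to 22.6, 21.1 and 18.4 CPM in L363-CFZr. The difference was 1.502 ± 0.19 (edgeR adjusted p = 2.46e-04), and with NCP26 its level was lower in AMO1 although it began higher. HK2, the hexokinase that traps glucose in the cell, fell from 227, 251 and 244 to 51.6, 63.6 and 64.5 CPM in AMO1 and from 108, 114 and 103 to 72.01, 59.5 and 72.2 CPM in L363-CFZr. Its effect was -1.999 ± 0.11 in the one line and -0.67 ± 0.11 in the other, a difference of 1.33 ± 0.15 (edgeR adjusted p = 8.71e-05). PGK1 and PFKP, both glycolytic enzymes, differed by 0.65 ± 0.13 and 0.65 ± 0.13.

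**Figure D3:**
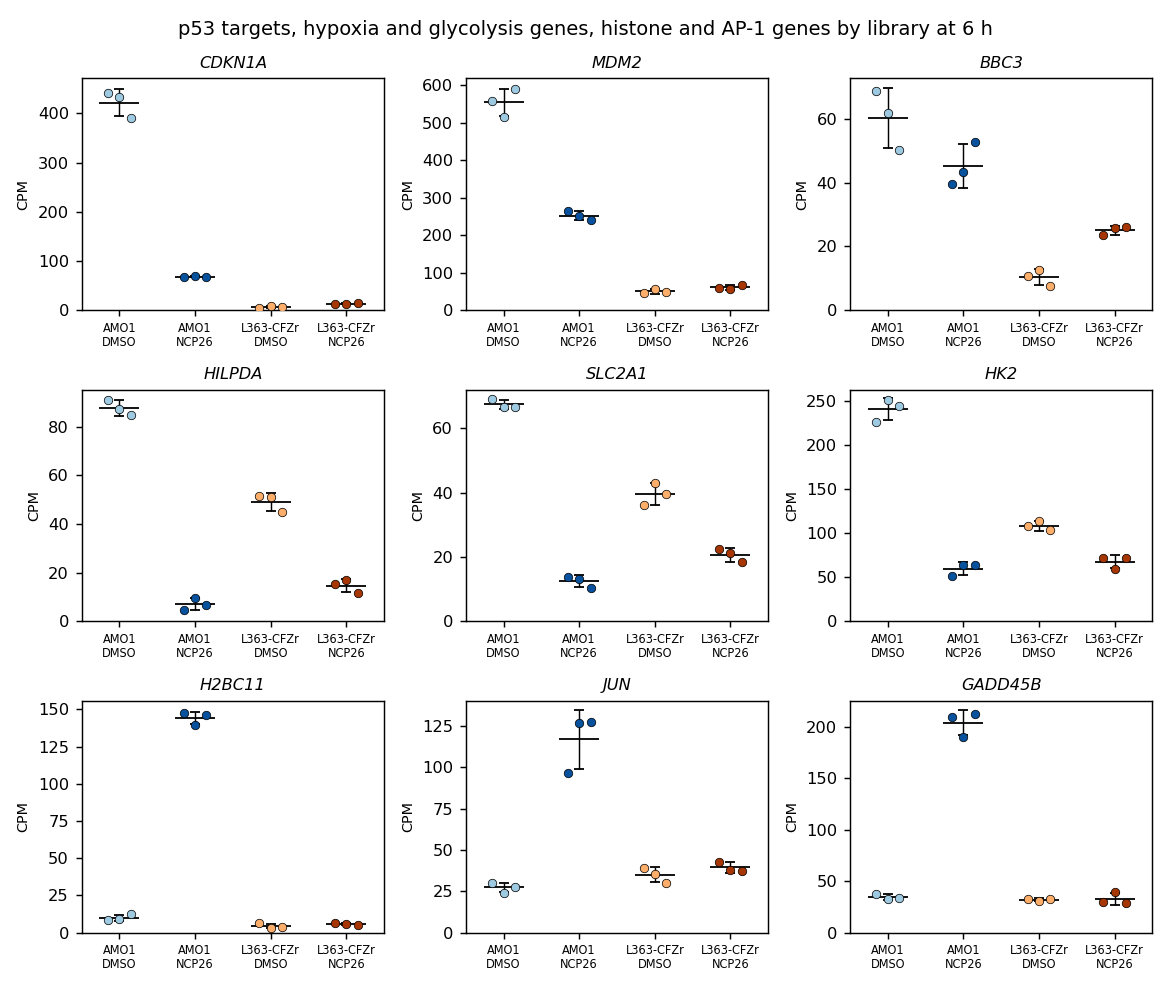
Level in CPM (y axis, from 0) of 3 p53 targets (top), HILPDA, SLC2A1 and HK2 (middle) and H2BC11, JUN and GADD45B (bottom) in each of the 12 libraries at 6 h, with the mean and SD of 3 libraries as bars. CDKN1A fell in AMO1 and rose from a low level in L363-CFZr, the middle genes fell further in AMO1, and the bottom genes rose in AMO1 with overlapping groups in L363-CFZr.

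Replication-dependent histone genes had the lowest median difference of the lists, -1.85. Of the 14 tested, 8 were lower (57.1%) and 0 higher, all 14 differences were negative, and NCP26 raised all 14 in AMO1 and 4 in L363-CFZr. Of the 36 listed genes 20 were found in the count table by symbol and 14 passed the filter on low counts. That filter keeps a gene that reaches the floor in only some libraries, such as those of AMO1 with NCP26. A gene could thus be tested because it rose there, so the rises in AMO1, the negative differences and their median are partly set by the filter. Since most transcripts of these genes lack a poly(A) tail, libraries with poly(A) selection hold only those with a tail. H2BC11 (chromosome 6, 27125897 to 27132795, minus strand) rose from 8.26, 9.11 and 12.4 to 148, 139.6 and 146 CPM in AMO1. In L363-CFZr it was at 6.23, 3.400 and 3.85 CPM with DMSO and 6.27, 5.82 and 4.96 CPM with NCP26, with overlap, and the difference was -3.51 ± 0.31 (edgeR adjusted p = 5.95e-06). H2AC6 rose in both lines, from 68.1, 73.6 and 69.7 to 566, 438 and 444 CPM in AMO1 and from 63.6, 52.01 and 64.9 to 97.7, 132 and 104 CPM in L363-CFZr (difference -1.89 ± 0.19).

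H2BC12, with 71.0% of its 31-mers shared with other genes, differed by -1.98 ± 0.21, and reads that kallisto could divide among copies make its level uncertain. The count of lower histone genes was 4 without replicate 1 or 3 of AMO1 with DMSO or replicate 1 of L363-CFZr with NCP26, and 5 without replicate 2 or 3 of L363-CFZr with DMSO. It was 10 without both libraries that stood apart. Of 31 tested G1/S and replication genes, 15 fell and 1 rose in AMO1, and 15 fell and 1 rose in L363-CFZr. The genes that fell were not all the same in the 2 lines. The differences of the list were higher for 1 and lower for 2, with a median of 0.05. Among G2/M and mitotic genes 2 of 27 were higher and 0 lower, with a median of 0.33, and 23 of the 27 differences were above 0. NCP26 lowered 15 of the 27 in AMO1 and 3 in L363-CFZr, where it lowered 17.9% and 12.1% of all genes. It raised 2 of them in each line.

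AP-1 and immediate early genes, which growth and stress kinases switch on, were lower for 2 of 28 tested genes (7.14%), JUN and JUND, against 0.752% of all genes. They were higher for 0, with a median difference of -0.30. In AMO1 15 rose and 3 fell, where 16.7% and 17.9% of all genes did. In L363-CFZr 7 rose and 2 fell, where 10.9% and 12.1% of all genes did. JUN went from 30.1, 24.2 and 27.6 to 96.2, 127 and 127 CPM in AMO1. In L363-CFZr it was at 39.02, 35.7 and 30.2 CPM with DMSO and 42.9, 37.99 and 37.2 CPM with NCP26, with overlap, and the difference was -1.92 ± 0.20 (edgeR adjusted p = 3.29e-05). GADD45B, a stress gene that acts on the kinases above AP-1, rose from 38.01, 32.6 and 33.3 to 209, 191 and 213 CPM in AMO1 and was at 32.8, 30.6 and 32.8 CPM with DMSO and 29.3, 39.4 and 28.7 CPM with NCP26 in L363-CFZr. Its difference was -2.54 ± 0.18 (edgeR adjusted p = 6.62e-07). NFKBIZ was the 1 of 18 tested NF-kB genes called, with -1.27 ± 0.30, a call that leaving out replicate 2 or 3 of AMO1 with DMSO removed, as did leaving out any of 5 other libraries.

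MYC, the growth regulator, fell from 415, 424 and 431 to 204, 201 and 193 CPM in AMO1 and was at 412, 363.4 and 385 CPM with DMSO and 319, 359 and 317 CPM with NCP26 in L363-CFZr. Its difference was 0.86 ± 0.13 (edgeR adjusted p = 7.98e-04), and the effect in L363-CFZr was -0.22 ± 0.09 (edgeR adjusted p = 0.0802). IRF4, the transcription factor on which myeloma cells depend, fell from 297, 314 and 342 to 141, 157 and 144 CPM in AMO1 and from 352, 343 and 322 to 271, 234 and 295 CPM in L363-CFZr (difference 0.76 ± 0.14). POU2AF1, a coactivator of immunoglobulin genes, differed by 0.78 ± 0.13, and KLF2, a factor of B cell quiescence, by 2.18 ± 0.35. With KLF2 included, 3 of 18 plasma cell transcription factor genes were higher and 0 lower, and 3 of 11 genes of the MYC network were higher and 0 lower, MYC, MXI1 and MXD3. MXI1 lost its call in 10 of the 12 fits that left out 1 library and MXD3 in 9, so that the count of the MYC network fell to 1 in 7 of them.

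SLAMF7, the surface antigen bound by elotuzumab, rose in AMO1 from 159, 160.1 and 156 to 294, 309 and 316 CPM. In L363-CFZr it was at 144, 148 and 142 CPM with DMSO and 139, 139 and 130 CPM with NCP26, with a difference of -1.04 ± 0.12 (edgeR adjusted p = 5.25e-05). SLAMF7 and CD28 were the 2 of 17 tested surface antigen genes that were lower, and 0 were higher, with the call of CD28 lost in 9 of the 12 fits that left out 1 library. SDC1, the plasma cell marker CD138, fell in both lines, and its difference of 0.25 ± 0.14 had no call (edgeR adjusted p = 0.401). The secretory gene DERL3 differed by 1.06 ± 0.19. Immunoglobulin genes and JCHAIN together went from 0.421%-0.473% to 0.168%-0.203% of the counts in AMO1 and from 0.436%-0.493% to 0.315%-0.336% in L363-CFZr. Nearly all of that share was JCHAIN, so it gives no level of immunoglobulin genes. Scaled to library totals, mean JCHAIN was 4451 CPM with DMSO and 1838 CPM with NCP26 in AMO1. In L363-CFZr it was 4685 and 3233 CPM, and the difference of effects was 0.82 ± 0.16 (edgeR adjusted p = 0.00798).

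A direct reversal was seen for 19 genes, which NCP26 lowered in AMO1 and raised in L363-CFZr (13) or raised in AMO1 and lowered in L363-CFZr (6). CDKN1A, BBC3 and BCL2L1 are described above. LPXN, which encodes the adhesion adaptor leupaxin, went from 71.7, 74.96 and 82.8 to 55.2, 49.7 and 47.9 CPM in AMO1 and from 2.95, 3.06 and 3.21 to 6.07, 9.304 and 7.09 CPM in L363-CFZr. TIFA, an adaptor of NF-kB signalling, went from 138, 126 and 155 to 90.3, 119 and 98.7 CPM and from 31.5, 32.98 and 29.3 to 49.1, 50.8 and 49.6 CPM. TWF2, an actin-binding twinfilin, had the same pattern, with a difference of 0.93 ± 0.16. In the other direction CLSPN, which encodes the replication checkpoint protein claspin, rose from 25.4, 29.1 and 30.4 to 40.6, 37.7 and 37.1 CPM in AMO1 and fell from 21.97, 23.5 and 22.1 to 13.2, 10.5 and 17.02 CPM in L363-CFZr. IP6K1, CTNS and UAP1L1 went the way of CLSPN, with differences of -0.94 ± 0.15, -0.98 ± 0.20 and -1.04 ± 0.18. For these genes the groups of a line did not overlap, apart from BBC3 in AMO1.

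Several of the largest fitted differences rest on genes close to absent in 1 group, and levels are given in place of a fold. KCNMB4, a potassium channel subunit, was at 0 in the 3 L363-CFZr libraries with DMSO and at 0.809, 1.16 and 0.887 CPM with NCP26, and at 20.8, 23.1 and 25.1 CPM with DMSO and 23.7, 20.1 and 18.9 CPM with NCP26 in AMO1. BCAT1, a branched-chain aminotransferase, was at 0.328, 0.6799 and 0 CPM with DMSO and 7.08, 6.59 and 9.399 CPM with NCP26 in L363-CFZr and overlapped in AMO1 (22.5, 19.3 and 24.4 CPM with DMSO and 23.7, 35.2 and 25.4 CPM with NCP26). GDF15, a secreted stress cytokine, was at 0.328, 0 and 0 CPM with DMSO and 2.63, 2.71 and 2.66 CPM with NCP26 in L363-CFZr, and at 19.8, 21.4 and 20.2 CPM with DMSO and 31.1, 29.96 and 32.9 CPM with NCP26 in AMO1. All 3 were called higher, but at these levels a count or 2 sets the start, and the call of KCNMB4 was lost without replicate 3 of L363-CFZr with DMSO. SERPINF1 went from 0.328, 0.3400 and 0.214 to 1.21, 1.36 and 1.42 CPM in L363-CFZr. Its call was lost in 5 of the 12 fits that left out 1 library, among them those without any of the 3 DMSO libraries of that line.

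SNTB1, which encodes a syntrophin, had a firmer start, 1.97, 3.06 and 2.14 CPM with DMSO, and reached 35.8, 38.2 and 42.7 CPM with NCP26 in L363-CFZr. In AMO1 it went from 15.5, 15.4 and 21.2 to 32.3, 38.3 and 49.8 CPM, and the difference was 2.82 ± 0.33 (edgeR adjusted p = 8.53e-05). GAS7 reached 14.97, 12.2 and 20.6 from 2.29, 2.38 and 2.998 CPM in L363-CFZr, against 65.4, 61.6 and 70.8 CPM with DMSO and 78.1, 89.9 and 103 CPM with NCP26 in AMO1. The lowest fitted difference belonged to ENSG00000269339, an identifier with no symbol in the tables used here. It was listed at 0 in the 3 AMO1 libraries with DMSO, at 1402, 10.8 and 454 CPM with NCP26, and at 554, 992 and 2388 CPM with DMSO and 1393, 2463 and 1179 CPM with NCP26 in L363-CFZr, with a wide spread within groups. ENSG00000006075, also without a symbol, rose in AMO1 from 141, 140.5 and 134 to 649, 528 and 555 CPM and was at 37.1, 38.1 and 32.8 CPM with DMSO and 35.4, 45.5 and 27.7 CPM with NCP26 in L363-CFZr. Among other genes with a low difference, WHAMM gave -1.26 ± 0.21, while SYT11, SPSB1 and LINS1 were called with adjusted p-values of 0.0465, 0.0402 and 0.0465 and lost the call without replicate 2 or 3 of AMO1 with DMSO, among other libraries.

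**Figure D4:**
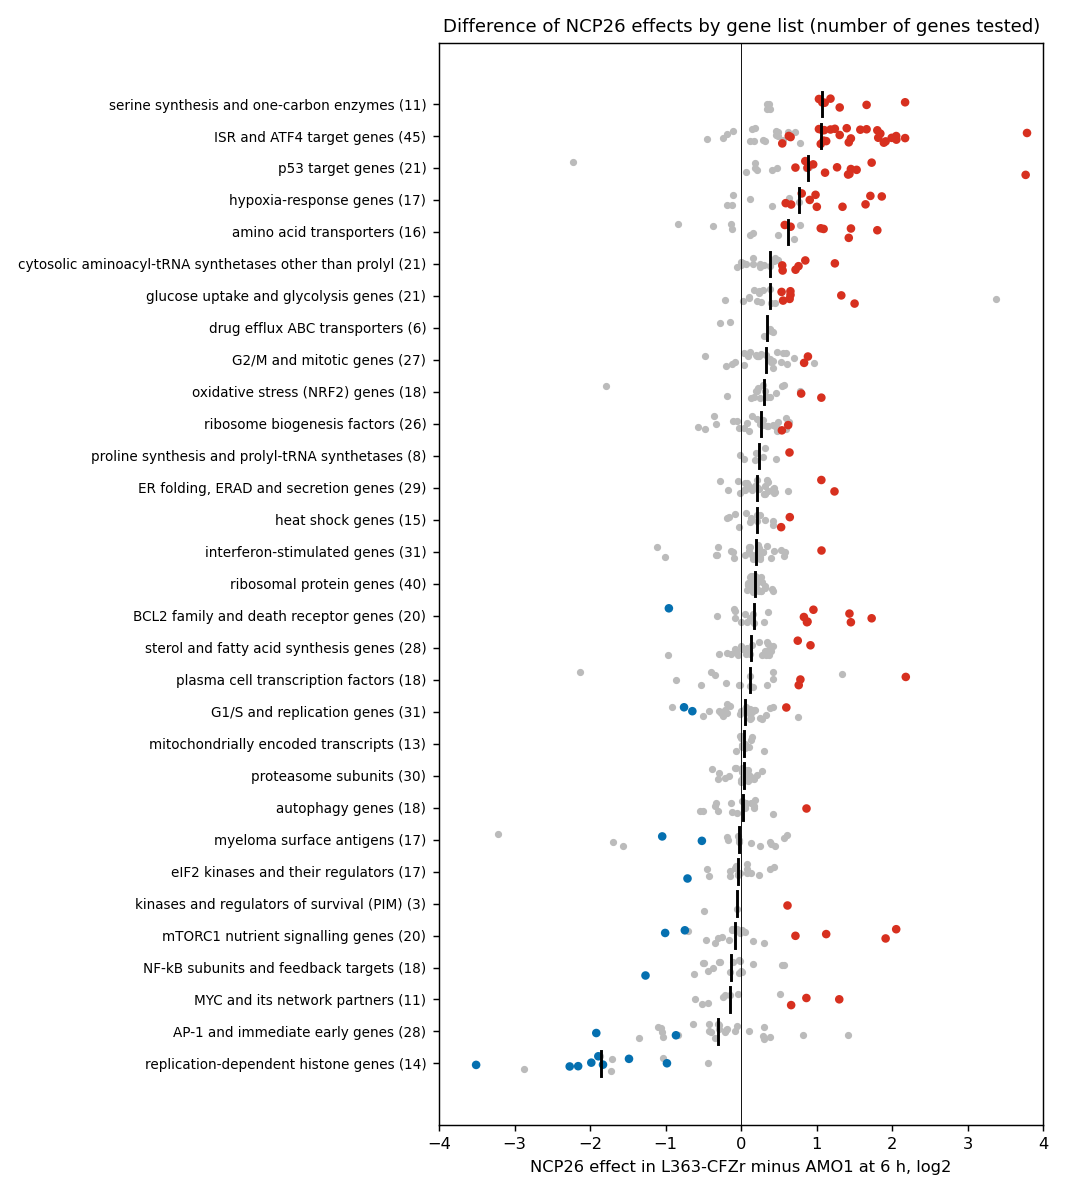
Difference of NCP26 effects (L363-CFZr minus AMO1, log2, x axis) for the tested genes of 31 lists, ordered by the list's median (black bar). Red points were called higher, blue points lower and grey points had no call. Serine and one-carbon enzymes and ISR genes have the highest medians, and replication-dependent histone genes the lowest.

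In other groups few genes or none differed by this test. Of 40 tested ribosomal protein genes 0 were called in either direction, although all 40 differences were above 0, with a median of 0.19 beside 0.01 over all genes. Of 30 proteasome subunits, the machine that CFZ inhibits, 0 were called, with a median of 0.04, and PSMB5, which encodes the subunit that CFZ binds, gave 0.09 ± 0.23. Of 13 mitochondrially encoded transcripts 0 were called, with a median of 0.04, and of 6 drug efflux ABC transporters 0, with a median of 0.35. ABCB1, the efflux pump P-glycoprotein, stood higher in L363-CFZr than in AMO1 with both treatments, at 257, 255.7 and 258 CPM in AMO1 and 1730, 1836 and 1633 CPM in L363-CFZr with DMSO, and its difference of effects was -0.15 ± 0.16 (edgeR adjusted p = 0.704). Heat shock genes fell for 12 of 15 in AMO1 and 10 in L363-CFZr, where 17.9% and 12.1% of all genes did. Of their differences 2 were higher, HSPA8, which lost its call in 7 of the 12 fits without 1 library, and HSPD1.

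The remaining lists held 1 or 2 calls each, where 1.96% of all genes were higher and 0.752% lower. Sterol and fatty acid synthesis genes, of which NCP26 lowered 16 of 28 in AMO1 and 10 in L363-CFZr, had 2 higher, HMGCS1, whose call was lost in 9 of those 12 fits, and MSMO1. Endoplasmic reticulum genes had 2 of 29 higher, DERL3 and CREB3L2, and 2 to 10 over the alternatives. Oxidative stress genes had 2 of 18 higher, SRXN1 and TXNRD1. Ribosome biogenesis factors had 2 of 26 higher, and 0 to 9 over the alternatives. Autophagy genes had 1 of 18 higher (5.56%), WIPI1, interferon-stimulated genes 1 of 31 (3.23%), IRF1, and the PIM kinases 1 of 3, PIM2 (0.61 ± 0.13). For lists of 18 or 31 genes 1 call is close to the share over all genes. For SRXN1 90.6%, for DERL3 70.9% and for ASNS 48.6% of the 31-mers occur in other genes, for DDIT3 28.9% and for ATF4 26.4%, and their levels are uncertain where kallisto could split the reads. Among the 104 named genes found in GENCODE v44, 53 shared more than 5% and 14 more than 25%.

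The same difference was tested in the 12 libraries of 24 h, which are other libraries than those of 6 h. There 608 of 11239 genes were called (5.41%), 334 higher (2.97%) and 274 lower (2.44%). In AMO1 at 24 h the DMSO and the NCP26 libraries fell in different inferred sets of sample numbers, so treatment and set cannot be told apart there. By the study's methods, which name AMO1 cells there, lysates of 6 h were frozen overnight while those of 24 h were held on ice. Time and handling therefore cannot be told apart in AMO1 either, and the storage of L363-CFZr lysates is not stated. Of the 10921 genes tested at both times, 298 were called at 6 h and 602 at 24 h, and 120 at both, which is 40.3% of the former and 19.9% of the latter. All 120 had the same direction, 97 higher and 23 lower. The change of the difference from 6 h to 24 h was called for 21 of 11461 genes (0.183%), among them 10 of the genes called at 6 h. Leaving out 1 library of 24 h moved the count of 608 to between 282 and 2407, the highest without replicate 2 of L363-CFZr with DMSO. That library stood apart from its replicates, by 34.1 and 32.8 times Poisson noise.

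At 24 h 21 of the ISR genes were higher and 0 lower, with a median of 0.79. MTHFD2 gave 1.96 ± 0.16, PSAT1 1.84 ± 0.16, ASNS 1.39 ± 0.13, ATF4 1.41 ± 0.21 and CHAC1 2.42 ± 0.34, all called (edgeR adjusted p at most 0.00286). Fewer p53 targets were called than at 6 h, 2 higher and 1 lower, with a median of 0.17. Of hypoxia genes 2 were higher and 0 lower, with a median of 0.19. Over all genes 2.97% were higher and 2.44% lower at 24 h. These lists were not counted without replicate 2 of L363-CFZr with DMSO, so fewer calls cannot be read as an effect of time. For CDKN1A the difference dropped to 1.48 ± 0.21, a change from 6 h of -2.29 ± 0.29 (edgeR adjusted p = 4.13e-04). TNFRSF10B changed by -1.16 ± 0.18 (edgeR adjusted p = 0.00326), HK2 by -1.38 ± 0.20 (0.00232) and SLC2A1 by -1.31 ± 0.22 (0.00946), to 24 h values of 0.28 ± 0.14, -0.06 ± 0.13 and 0.18 ± 0.14 with no call. The difference of SLAMF7 was larger in size at 24 h, from -1.04 ± 0.12 to -2.06 ± 0.14 (change -1.005 ± 0.16, edgeR adjusted p = 0.00691). With a replicate block within each line and time, a change was called for 4 genes, 3 of them among the 21 genes of the main fit. Values of single genes at 24 h are not given here without replicate 2 of L363-CFZr with DMSO. JUN was lower at 24 h too (-1.59 ± 0.16), and 1 histone gene was called, H2BC12 (-1.38 ± 0.20). The median over the histone genes tested at both times was -0.84, and H2BC11 gave -1.53 ± 0.48 with no call (edgeR adjusted p = 0.0852).

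**Figure D5:**
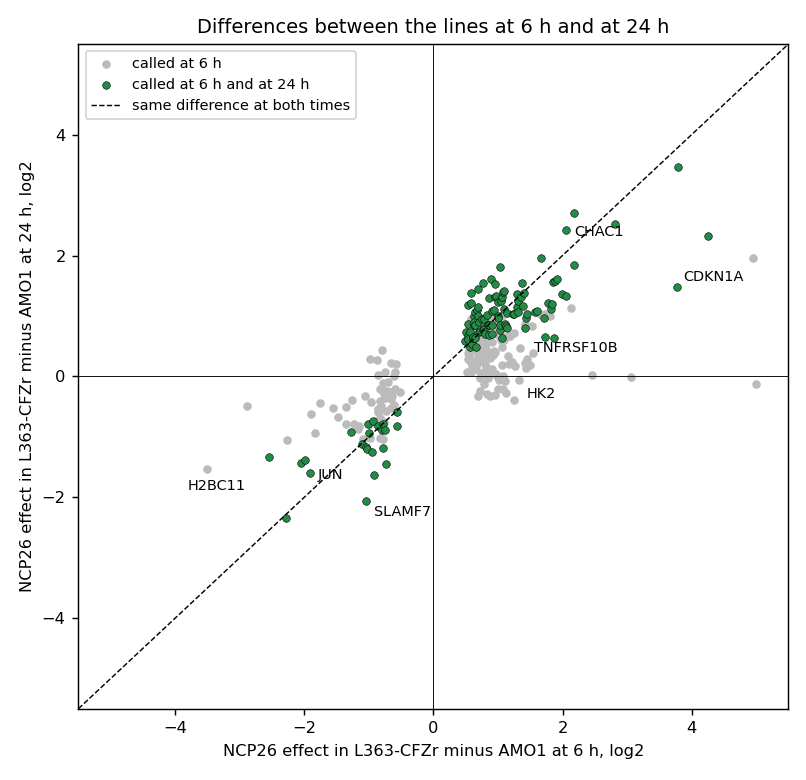
Difference of NCP26 effects (L363-CFZr minus AMO1, log2) at 6 h (x axis) and 24 h (y axis) for genes called at 6 h, with 296 of 298 genes inside the axes. The 120 genes called at both times (green) lie in the quadrants of equal sign, and HK2 and TNFRSF10B lie near 0 at 24 h.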

How the data were processed

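Multiple myeloma cell lines were treated for 6 h or 24 h, and poly(A) RNA was made into directional libraries and sequenced in pairs of reads by the study. The authors deposited whole-number counts per Ensembl gene for 66 libraries and 20167 genes, made with kallisto from 31-mers. The submitters' processing notes name hg19 and the methods GRCh38, while a version for kallisto and an annotation were not given in the sources used here. kallisto divides reads among transcripts that share sequence, so levels of genes with near-identical copies are uncertain. Symbols and coordinates came from GENCODE v44 (GRCh38), which held 95.7% of the identifiers, and promoters from RefSeq.

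The 12 libraries of 6 h were fitted together in edgeR 4.0.16 (R 4.3.3) with TMM scaling, 1 coefficient per group and no block, and filterByExpr kept genes using a count floor of 10 per library and 15 in total. The residual degrees of freedom were 8 and the biological coefficient of variation 11.4%. The quasi-likelihood test was used with Benjamini-Hochberg adjustment over all tested genes and a threshold of 0.05. Log2 values are given ± SE, and CPM of single genes used TMM library sizes, while the summed marker levels used library totals without TMM. No 2 libraries of a group were identical, and replicates correlated at 0.969 to 0.990 (Pearson, log2 CPM). Members and gene lists were chosen with earlier results of these data known. Named genes were the 15 highest and 15 lowest differences with a mean of at least 10 CPM, up to 4 called members of each list, up to 5 genes in each direction that moved oppositely in the lines, and a short list of myeloma and ISR genes. Other list members (among them BAX, FAS, FDXR, PPP1R15A, RRAGC, SESN1 and the hypoxia genes without a call) were named after their values were seen. Alternatives were DESeq2 1.42.0, other scalings and filters, GC offsets, replicate blocks, thinned counts and leaving out each library. On simulated counts for the 6 h difference over 10971 genes, 18 of 100 genes changed by 0.75 and 77 of 99 changed by 1.5 on the log2 scale were recovered, and 4.04% of 99 calls were false. Depth limits genes of few counts, and p-values cover the spread between libraries only.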

Additional observations from a re-analysis of the deposited data

Results flagged for a closer look

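The NCP26 effect at 6 h was tested for a difference between AMO1 and L363-CFZr in the 11044 genes that passed the filter on low counts, and 299 differed (edgeR's quasi-likelihood test, adjusted p under 0.05). The genes named here had opposite effects in the lines, each called in both. On the log2 scale (L363-CFZr minus AMO1) the difference was 3.77 for CDKN1A, 1.73 for BBC3, 1.86 for LPXN, 1.12 for TIFA and 0.93 for TWF2, which fell in AMO1 and rose in L363-CFZr. It was -1.16 for CLSPN, -1.04 for UAP1L1, -0.98 for CTNS, -0.96 for BCL2L1 and -0.94 for IP6K1, which rose in AMO1 and fell in L363-CFZr. The libraries of a line share an inferred set of sample numbers, so line and set cannot be told apart.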

How the results depend on the processing

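The count of 299 genes for the 6 h difference was 539 with no filter on low counts, 1019 with all 11 groups of 6 h in one fit, 139 with a replicate block within each line, 193 with that block and a GC offset, and 513 without both libraries that stood apart, a setting chosen after seeing the data. It was 302 with DESeq2 size factors, 358 with DESeq2's own test and 258 with thinned counts, and leaving out 1 library gave 181 (without replicate 1 of L363-CFZr with DMSO) to 404, with 190 without replicate 2 of AMO1 with DMSO. The AMO1 effect (3825) ran from 2785 to 4474 over left-out libraries. With the GC offset, over the 10872 genes with a GC value, it was 3262, with 2574 of the 3825 among them. The L363-CFZr effect (2534) ran from 1433, without replicate 3 of its DMSO group, to 3171, and was 1287 with block and GC offset. With the GC offset alone it was 1857, with 1431 of the 2534 among them. Across genes the log2 effects correlated with GC content at -0.338 in AMO1 and -0.305 in L363-CFZr, and the difference at 0.057 (Pearson). The line difference under DMSO (5783) ran from 5037 to 6355, and was 3372 with the block and 3615 with block and GC offset. At 24 h the difference (608) was 90 with the replicate block and 282 to 2407 over left-out libraries. The change from 6 h to 24 h (21) was 77 with DESeq2 and 4 with the block. The cause of these shifts was not tested. The main fit had no replicate block because the study's methods name none. Same-numbered libraries of a line correlated from -0.197 to 0.053 in their deviations. Of 95 named genes called, 62 were called in all 24 alternatives and 4 identifiers in all but the GC offsets, which gave them no value, and no direction reversed. Genes with smaller differences may be missed at this depth.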
